A study of Mus musculus with 10 samples.

Results

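The genes described here are the 8 targets Clec10a, Cyp11a1, Fgf3, Gpr65, Susd1, Tespa1, Tmem44 and Sept9, which the study placed among the promoters repressed by GATA1 and isolated with biotinylated dCas9, and which lie outside the mast cell programme. They are 8 of 21938 protein-coding genes with a transcript start in GENCODE M21. Members were taken by name, and every ATAC-seq peak summit from 100 kb upstream to 100 kb downstream of each gene span was collected. Summits whose surrounding 250 bp windows overlapped were merged across libraries into regions, which gave 80 regions in the 8 windows out of 28981 in the genome.

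ATAC-seq marks DNA that the transposase Tn5 can reach. It was performed in G1E-ER4, a mouse erythroid precursor line without Gata1 into which a fusion of GATA1 and the estrogen receptor was introduced, so that adding β-estradiol switches GATA1 on. The 5 groups were untreated cells (0 h) and cells kept for 2, 6, 12 or 24 h in 1e-07 M β-estradiol, with 2 libraries each of about 50000 cells. Cells of every group grew in 15% fetal bovine serum, 50 ng/mL stem cell factor and 2 U/mL erythropoietin, and all came from this one subclone. The study describes its time courses in these cells as 2 independent experiments, without saying what the experiments shared.

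The deposited files list summits with the MACS2 score, the −log10 of the q-value, and hold no reads. Each list held 10698 to 19859 summits, all with a q-value under 0.05, and absence from a list means only that no peak passed this threshold. The score is not scaled between libraries, and its median was higher in replicate 2 than in replicate 1 at all 5 time points. Levels are therefore given as the percentile of a summit's score within its own list, where 100 is the strongest. The second 24 h library had the shortest list and the smallest share of distal regions, 33.9% against 40.1% to 55.1% in the other 9. Of 10 erythroid marker genes, 3 to 8 per library had a listed promoter, among them Tfrc in all 10 libraries, while Alas2 and Slc4a1 had one in none. Of the marker lists for other lineages, 0 to 2 of 7 mast cell genes, 0 to 1 of 7 T cell genes and none of 5 B cell or 7 macrophage and dendritic cell genes had one.

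GATA1 is the zinc finger factor that drives erythroid maturation, and it both activates red cell genes and silences genes of the precursor state and of other lineages. It binds WGATAR sequences, often beside an E-box bound by TAL1, and repression at many loci goes along with displacement of GATA2 from the same sites. The 8 genes have little in common in what they encode. Clec10a is a galactose-binding C-type lectin of macrophages and dendritic cells, Gpr65 a proton-sensing receptor of immune cells, and Tespa1 a protein of T cell receptor signalling needed for thymocyte selection. Cyp11a1 is the mitochondrial enzyme that cleaves the cholesterol side chain in the first step of steroid synthesis, and Fgf3 is a secreted fibroblast growth factor of the embryo. Susd1 is a protein with sushi domains, Tmem44 a multi-pass membrane protein whose role is little known, and Sept9 a septin, a GTPase that polymerises into cytoskeletal filaments.

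The capture guides locate the promoters the study addressed. All 24 guides of 20 bases, 3 per gene, matched the GRCm38.p6 (mm10) genome once within their gene's window, and each was followed by an NGG motif. Their centres lay 84 to 288 bp from the nearest GENCODE transcript start, which is called the captured start below. The first guide of each gene is shown because it anchors the distances in the rest of the text.
Clec10a guide: agatgatgaggactcgtgct
Cyp11a1 guide: tagtggtcttagggacccat
Fgf3 guide: ttgacaacaaaaggcggccg
Gpr65 guide: gtcaccagtatgcactcttt
Susd1 guide: cccaccttaaaacggtccct
Tespa1 guide: gggtattgcccactagacaa
Tmem44 guide: ttgcgccaccccggccagaa
Sept9 guide: ggccccgtgcttatatgcga

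In mm10, the guide for Clec10a lay on the plus strand at chr11:70166329-70166348, 284 bp upstream of the captured start at 70166623, and that for Cyp11a1 on the plus strand at chr9:58014756-58014775, 94 bp downstream of the start at 58014671. The Fgf3 guide lay on the minus strand at chr7:144838334-144838353 and the Gpr65 guide on the minus strand at chr12:98268367-98268386. The Susd1 guide occupied the minus strand at chr4:59438844-59438863 and the Tespa1 guide the minus strand at chr10:130322625-130322644. The Tmem44 guide lay on the plus strand at chr16:30550854-30550873. The Sept9 guide, on the plus strand at chr11:117265971-117265990, addressed only 1 of the 5 starts of this gene, which spans 163 kb.

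Of the distal regions in these windows, 5 appeared in each 0 h list but had vanished from both lists of 24 h, and they are described first because they carry the losses. They lay in an intron of Galc 21.6 kb upstream of Gpr65, in an intron of Tespa1 13.7 kb downstream of its start, in intergenic DNA 49.7 kb upstream of Fgf3, and at 54.0 and 59.6 kb downstream of the captured start within introns of Sept9. Distal here means over 1 kb from every start in the GENCODE basic set, and the Sept9 region at 59.6 kb lay within 1 kb of a start outside that set. The central 200 bases of 4 of them follow on the plus strand of GRCm38.p6, with every AGATAA or TGATAA, on either strand, in capitals as the GATA motif. The 2 Sept9 regions had no match, and 1 of them is shown for contrast.
Gpr65 21.6 kb upstream, chr12:98246964-98247163: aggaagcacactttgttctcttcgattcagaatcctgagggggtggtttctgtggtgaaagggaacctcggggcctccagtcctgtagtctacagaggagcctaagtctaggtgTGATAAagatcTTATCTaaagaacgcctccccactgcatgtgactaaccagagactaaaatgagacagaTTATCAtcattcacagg
Tespa1 13.7 kb downstream, chr10:130336460-130336659: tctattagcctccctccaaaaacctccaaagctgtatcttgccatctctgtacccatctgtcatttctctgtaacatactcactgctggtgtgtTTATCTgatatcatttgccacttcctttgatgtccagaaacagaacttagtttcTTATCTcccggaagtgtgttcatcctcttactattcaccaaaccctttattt
Fgf3 49.7 kb upstream, chr7:144788785-144788984: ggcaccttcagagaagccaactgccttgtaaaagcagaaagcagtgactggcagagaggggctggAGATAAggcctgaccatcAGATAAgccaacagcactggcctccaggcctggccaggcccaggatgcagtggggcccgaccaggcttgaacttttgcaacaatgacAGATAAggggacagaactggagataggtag
Sept9 59.6 kb downstream, chr11:117325738-117325937: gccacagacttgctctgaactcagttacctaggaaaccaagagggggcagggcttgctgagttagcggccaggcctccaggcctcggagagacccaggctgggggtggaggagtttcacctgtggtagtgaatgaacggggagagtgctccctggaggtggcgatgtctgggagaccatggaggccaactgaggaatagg

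The region upstream of Gpr65 (chr12:98246699-98247410) was listed at percentiles of 70.7 and 50.2 before treatment. After 2 h it stood at 52.2 and 79.2, after 6 h at 30.1 and 42.5, and after 12 h at 15.1 and 47.6, and neither library taken at 24 h listed it. All 8 libraries up to 12 h thus held it, and the 4 libraries of 6 and 12 h stood below the 4 of 0 and 2 h. It was also the only member region called by a fit across regions, one in which an absent library was set to the bottom of its list (adjusted p = 0.0178 at 24 h, limma over 11884 regions listed in at least 6 libraries, n = 2 libraries a group). The normal score of its rank averaged 0.27 at 0 h, and the -3.95 at 24 h was assigned for absence and is no measured level, so the call restates the absence from both 24 h lists. This fit was an alternative to the one planned as the main test, and it called 1.46% of its regions at 24 h and 1 of 27 member regions. Leaving out any 1 of the 4 libraries compared ended the call (adjusted p = 0.0501 to 0.0744, limma), and it was kept with the replicate number as a block (adjusted p = 0.0291, limma). At 2, 6 and 12 h the fit called 0 of 27 member regions, beside 0.362%, 0.454% and 0.614% of all. The region held 3 GATA matches, 1 of which followed a CTG at 7 to 8 bases, the spacing of the composite TAL1-GATA element.

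With the full lists, Tespa1 was the only member with a loss at 6 h. Its intronic region at chr10:130336006-130336836 stood at percentiles of 0.662 and 36.6 before treatment and 30.8 and 35.1 after 2 h, and none of the 6 libraries of 6, 12 and 24 h listed it. At 6 h it was thus 1 of 80 member regions lost, where 0.759% of all regions were. One 0 h value lay at the very bottom of its list, and the call was absent when only scores of at least 3, summit windows of 100 bp, or lists of equal length were used. With lists of equal length, 2 of 44 member regions were lost at 6 h (4.55%, against 2.17% of all regions), in the windows of Fgf3 and Susd1. The Tespa1 promoter (chr10:130322497-130323138) remained listed far longer, with percentiles of 92.3 and 74.9 before treatment, 75.0 and 69.1 after 2 h, 78.5 and 65.2 after 6 h, and 69.9 and 55.4 after 12 h. By 24 h it was absent from replicate 1 and at 22.0 in replicate 2. Both 24 h libraries thus lay below all 8 earlier ones, yet in the fit with absent libraries at the bottom its difference at 24 h was -3.43 ± 0.97 (SE) with an adjusted p of 0.279 by limma. No GATA match lay in the 300 bases around this promoter summit.

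Upstream of Fgf3, 2 neighbouring distal regions behaved differently. The one at 49.7 kb (chr7:144788541-144789330) stood at 66.3 and 26.5 before treatment and at 48.8 and 67.8 after 2 h, was listed at 27.9 in 1 of the 2 libraries of 6 h, and was absent from all 4 libraries of 12 and 24 h. The one at 51.9 kb (chr7:144786362-144787090) was in 9 libraries, among them both untreated ones (76.5 and 35.6) and both of 12 h (78.6 and 7.05), and was missing from the second 24 h library. The first contained 3 GATA matches in its central 300 bases and the second 2. The third region, 62.3 kb upstream (chr7:144775788-144776599) was in neither 0 h library and counted as gained at 6 h (8.32 and 9.7) and 12 h (61.7 and 3.6), with 5 of its 6 percentiles below 10. The losses at 49.7 kb were found under all 4 other ways of forming the regions and lists that were tried, as was the Gpr65 loss.

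In Sept9 the region at 59.6 kb (chr11:117325448-117326177) was in all 8 libraries up to 12 h, at percentiles that ranged from 0.38 to 67.5 and that differed most between the 2 libraries of 0 h. The region at 54.0 kb (chr11:117319776-117320863) was in 6 of those 8, never above 33.4. Both were absent at 24 h, but neither counted as lost when lists were cut to equal length or to scores of at least 3. Another Sept9 intronic region, at 92.1 kb (chr11:117358094-117358774), was listed in all 10 libraries, at 77.5 and 60.8 without estradiol and 15.0 and 57.5 after 24 h. Its normal score differed by -0.94 ± 0.61 (SE) at 24 h (adjusted p = 0.999, limma), within the spread between libraries.

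Beside the genome, the share of member regions lost was lower at 2 h and higher at the 3 later times, on counts of 0 to 5. No member region was lost at 2 h, where 1.15% of all regions were, 1 of 80 at 6 h, 2 of 80 at 12 h (2.5%, against 1.88% of all regions), and 5 of 80 at 24 h (6.25%, against 3.51%). All 5 were distal, as were 64 of the 80 member regions, while 19293 of all 28981 regions were. The sets thus differ in make-up, and the share lost among distal regions alone is not given here. With 2 libraries against 2, an exact permutation test cannot give a two-sided p below 0.333, so these counts are a description. Leaving out the second 24 h library, which listed only 6 distal member regions against 18 to 34 in the others, gave 7 member regions lost, and leaving out the first gave 10, against 5.12% and 7.32% of all regions. With every list cut to the length of that library's, 3 of 44 member regions were lost at 24 h (6.82%, against 3.8% of all regions). These were the regions of Gpr65 and Fgf3 described above and 1 in the Susd1 window, and the losses in Tespa1 and Sept9 no longer counted.

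**Figure D1:**
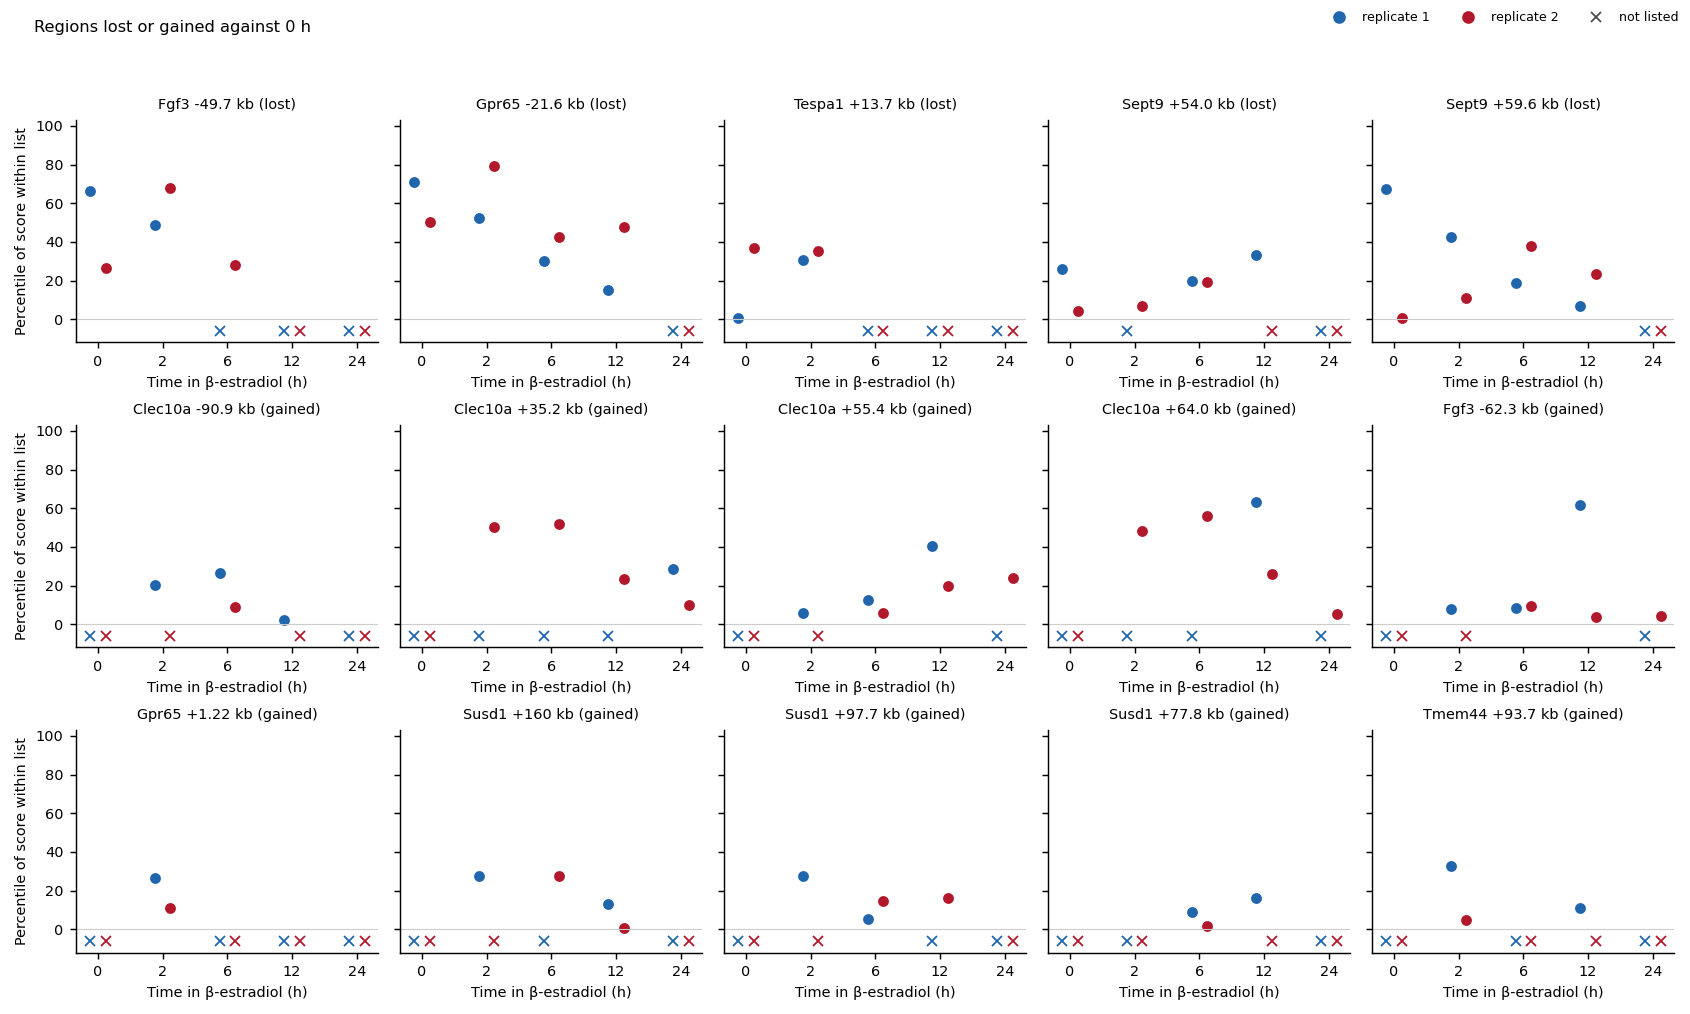
Percentile of the score within each library's list (vertical axis) against hours in β-estradiol (horizontal axis) for the 5 member regions lost and the 10 gained at any time against 0 h. Each point is 1 library and crosses below 0 mark libraries that did not list the region; the Gpr65 region 21.6 kb upstream is listed in all 8 libraries up to 12 h and in neither of 24 h.

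In all, 10 regions were gained at some time, that is, absent from both untreated lists and present in both of that time. At 2 h these were 2 of 80 (2.5%, against 2.67% of all regions), at 6 h 5 (6.25%, against 4.08%), at 12 h 4 (5.0%, against 2.47%) and at 24 h 1 (1.25%, against 1.71%). The Clec10a window held 4 of the 10. The region at its downstream neighbour Bcl6b, a transcriptional repressor gene (chr11:70230284-70230838), was listed at 63.1 and 25.9 at 12 h, and also in the second libraries of 2, 6 and 24 h at 48.0, 56.1 and 5.31, and it was the only gain found under all 4 alternative ways of forming regions and lists. An intergenic region 35.2 kb downstream of Clec10a (chr11:70201491-70202107) was at 28.6 and 10.2 at 24 h, and also in the second libraries of 2, 6 and 12 h at 23.3 to 52.1. A region beside the Slc16a13 promoter (chr11:70221586-70222254) was at 12.3 and 5.81 after 6 h and at 40.4 and 19.9 after 12 h. The fourth, 90.9 kb upstream (chr11:70075438-70076023), stood at 26.6 and 8.86 at 6 h and was absent at 24 h.

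Of the other 6, the region 62.3 kb upstream of Fgf3 is described above, and the rest never stood above 32.9. Gpr65 had a region inside its own intron, 1.22 kb downstream of the start (chr12:98269477-98270239), at 26.4 and 10.8 at 2 h and in no other library. Susd1 gained 3 distal regions, 77.8 and 97.7 kb downstream within its introns at 6 h and 160 kb downstream, beyond its end, at 12 h, none above 27.7 in any library. The region 93.7 kb downstream of Tmem44 (chr16:30456533-30457205) stood at 32.9 and 4.75 at 2 h. It had 4 GATA matches in its central 300 bases and 1 match to the TAL1-GATA element, more GATA matches than any of the 5 lost regions. None of these 5 gains was found when all lists were cut to the length of the shortest.

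**Figure D2:**
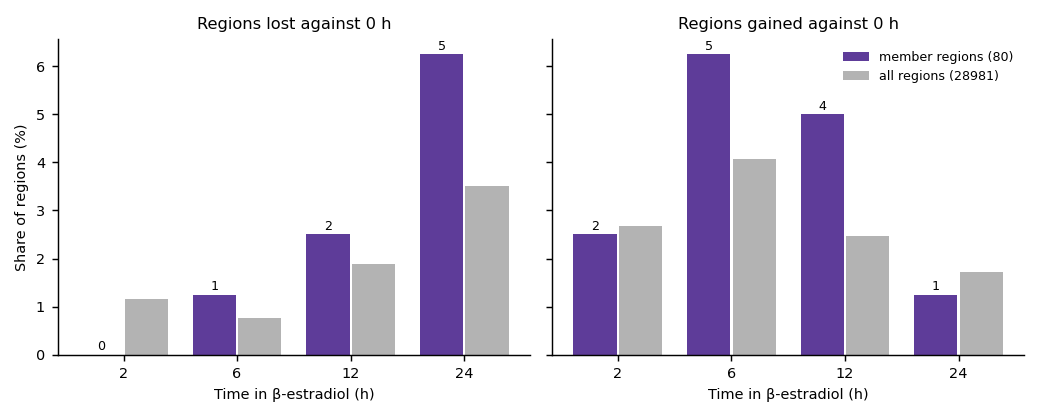
Share of regions lost (left) and gained (right) against 0 h in percent, by hours in β-estradiol, for the member regions (purple, with their number above the bar) and all 28981 regions (grey). At 24 h 6.25% of member regions were lost against 3.51% of all regions. Distal regions make up 64 of the 80 member regions and 19293 of all 28981. No error is drawn because each share is a single count.

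The promoters themselves ranged from listed in no library to listed in 9. Within 1 kb of a transcript start, 5 of the 8 members had a summit in at least 1 library, and none had one in all 10, while 44.1% of all genes had one in at least 1 library and 26.0% in all 10. Per library, 1 to 4 members had a listed promoter, and the lowest number was in the second 24 h library, in which 34.8% of all genes had one. Fgf3, Gpr65 and Sept9 had none at any time, as did 55.9% of all genes. For Sept9 this depended on the starts used: with those of every GENCODE transcript, a choice made after the data were seen, it was listed in all 10 libraries through its regions at 41.9, 59.6 and 92.1 kb.

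The Clec10a promoter (chr11:70166098-70166731) was listed in 9 libraries. It stood at 49.1 and 0.863 before treatment, then at 33.5 and 34.1 (2 h), 55.7 and 61.3 (6 h), and 60.0 and 36.5 (12 h), and at 23.5 in the only 24 h library that listed it. The 2 libraries of 6 h stood above both of 0 h, but the 0 h pair alone covered most of the range. Between the 0 h and the 24 h libraries the values overlapped.

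Susd1 had the most irregular promoter (chr4:59437950-59438856) with its centre in the UTR. It was at 16.9 in 1 library of 0 h and 13.2 in 1 of 2 h, then at 78.1 and 71.5 in both libraries of 6 h, and at 39.6 (12 h) and 45.1 (24 h) in replicate 1 only. The 6 h pair stood above every other library. In the fit with absent libraries at the bottom, the normal score at 24 h differed from that at 0 h by 0.43 ± 1.82 (SE, adjusted p = 1.0, limma).

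The Tmem44 promoter (chr16:30550111-30550933) was in 8 libraries at percentiles of 9.71 to 46.1, 10.8 and 45.5 being those of untreated cells and 9.71 that of the only 24 h library to list it. At 2 h it was absent from replicate 1 and at 13.2 in replicate 2. The libraries of 0, 6 and 12 h overlapped one another, and with absence counted as lowest both 24 h libraries stood below them. In the fit with absent libraries at the bottom, the 24 h difference was -1.93 ± 1.16 (SE, adjusted p = 0.868, limma). The captured Cyp11a1 promoter (chr9:58014398-58014898) was listed once, at 17.8 in the second 12 h library. A weak region 16.3 kb further upstream (chr9:57997924-57998831), 388 bp from another Cyp11a1 start in RefSeq, was in 5 libraries from 0 to 12 h at 5.19 to 24.6.

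**Figure D3:**
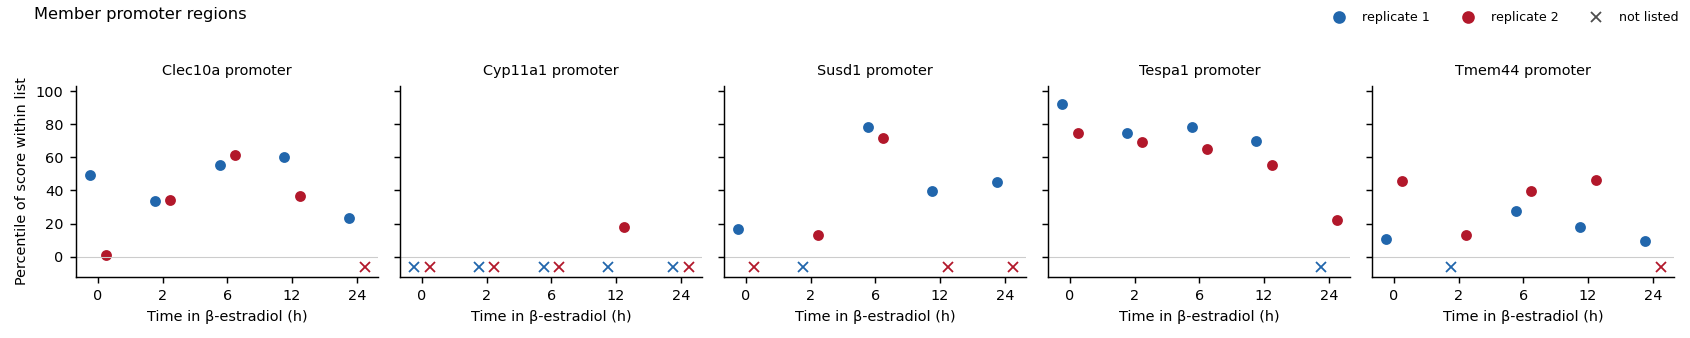
Percentile of the promoter score within each list (vertical axis) against hours in β-estradiol (horizontal axis) for the 5 members with a listed promoter. Each point is 1 library and crosses mark libraries with no summit; the Tespa1 promoter lies at 55.4 to 92.3 in the 8 libraries up to 12 h and at 22.0 or absent at 24 h.

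Base composition around the captured start divided the genes in another way than their promoters' presence did. In the 500 bases around the start, the ratio of observed to expected CpG was 0.0978 to 0.199 for Clec10a, Cyp11a1, Gpr65 and Tespa1, and 0.636 to 0.865 for Fgf3, Susd1, Tmem44 and Sept9. Over all genes, its median was 0.83 where the promoter was listed in all 10 libraries and 0.295 where it was listed in none. For promoters listed in 1 to 9 libraries, the class of the 5 members with a listed promoter, it was 0.787. Fgf3 (0.865) and Sept9 (0.636) had CpG-rich starts without a summit in any library, while Clec10a (0.199) and Tespa1 (0.198) had CpG-poor starts that were listed in 9 of 10.

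RefSeq (GRCm38.p6) promoter sequences were at hand for 6 of the 8 members, those other than Clec10a and Tespa1. The 250 bases upstream of the start are given for Fgf3 and for Susd1, whose promoter was listed in 6 libraries. Of these members, only Fgf3 had a GATA match in these bases at its captured start. Of 32851 RefSeq promoters, 16.6% held a GATA match in these 250 bases. The central 300 bases of the listed Susd1 promoter region held 1 GATA match and 1 match to the TAL1-GATA element.
Fgf3 promoter, plus strand, chr7:144838362-144838611: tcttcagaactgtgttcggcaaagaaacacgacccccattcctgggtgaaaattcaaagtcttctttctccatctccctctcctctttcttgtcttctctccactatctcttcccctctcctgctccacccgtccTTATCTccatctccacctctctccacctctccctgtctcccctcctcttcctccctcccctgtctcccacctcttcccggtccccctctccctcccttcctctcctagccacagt
Susd1 promoter, minus strand, chr4:59438634-59438883: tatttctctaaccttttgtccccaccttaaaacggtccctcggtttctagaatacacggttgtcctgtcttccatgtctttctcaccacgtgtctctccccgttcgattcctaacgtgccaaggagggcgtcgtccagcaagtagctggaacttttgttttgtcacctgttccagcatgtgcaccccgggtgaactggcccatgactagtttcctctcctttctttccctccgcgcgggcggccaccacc

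Across the 8 windows, 64 regions were distal, 11 lay at promoters of other genes and 5 at promoters of the members. Of the 80 regions, 7 (8.75%) were listed in all 10 libraries, against 21.5% of all regions, and 23 (28.7%) in a single library, against 28.9%. Distal regions were 19293 of all 28981, so the sets differ in make-up. Of the 7, 5 were promoters of neighbours: Slc16a13 and 0610010K14Rik beside Clec10a, Ubl7 beside Cyp11a1, LTO1 beside Fgf3 and Sec14l1 beside Sept9. The other 2 were the Sept9 intronic region at 92.1 kb and a region 14.1 kb upstream of Susd1 (chr4:59452257-59453005). Listed distal member regions were low in their lists, with median percentiles of 7.18 to 41.8 per library, below the median of all distal regions (31.8 to 38.5) in 9 of 10 libraries. Of the 23 single-library member regions, 9, in the windows of 6 members, came from the first 24 h library. Over the genome, that library held 1213 of the 8368 single-library regions.

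**Figure D4:**
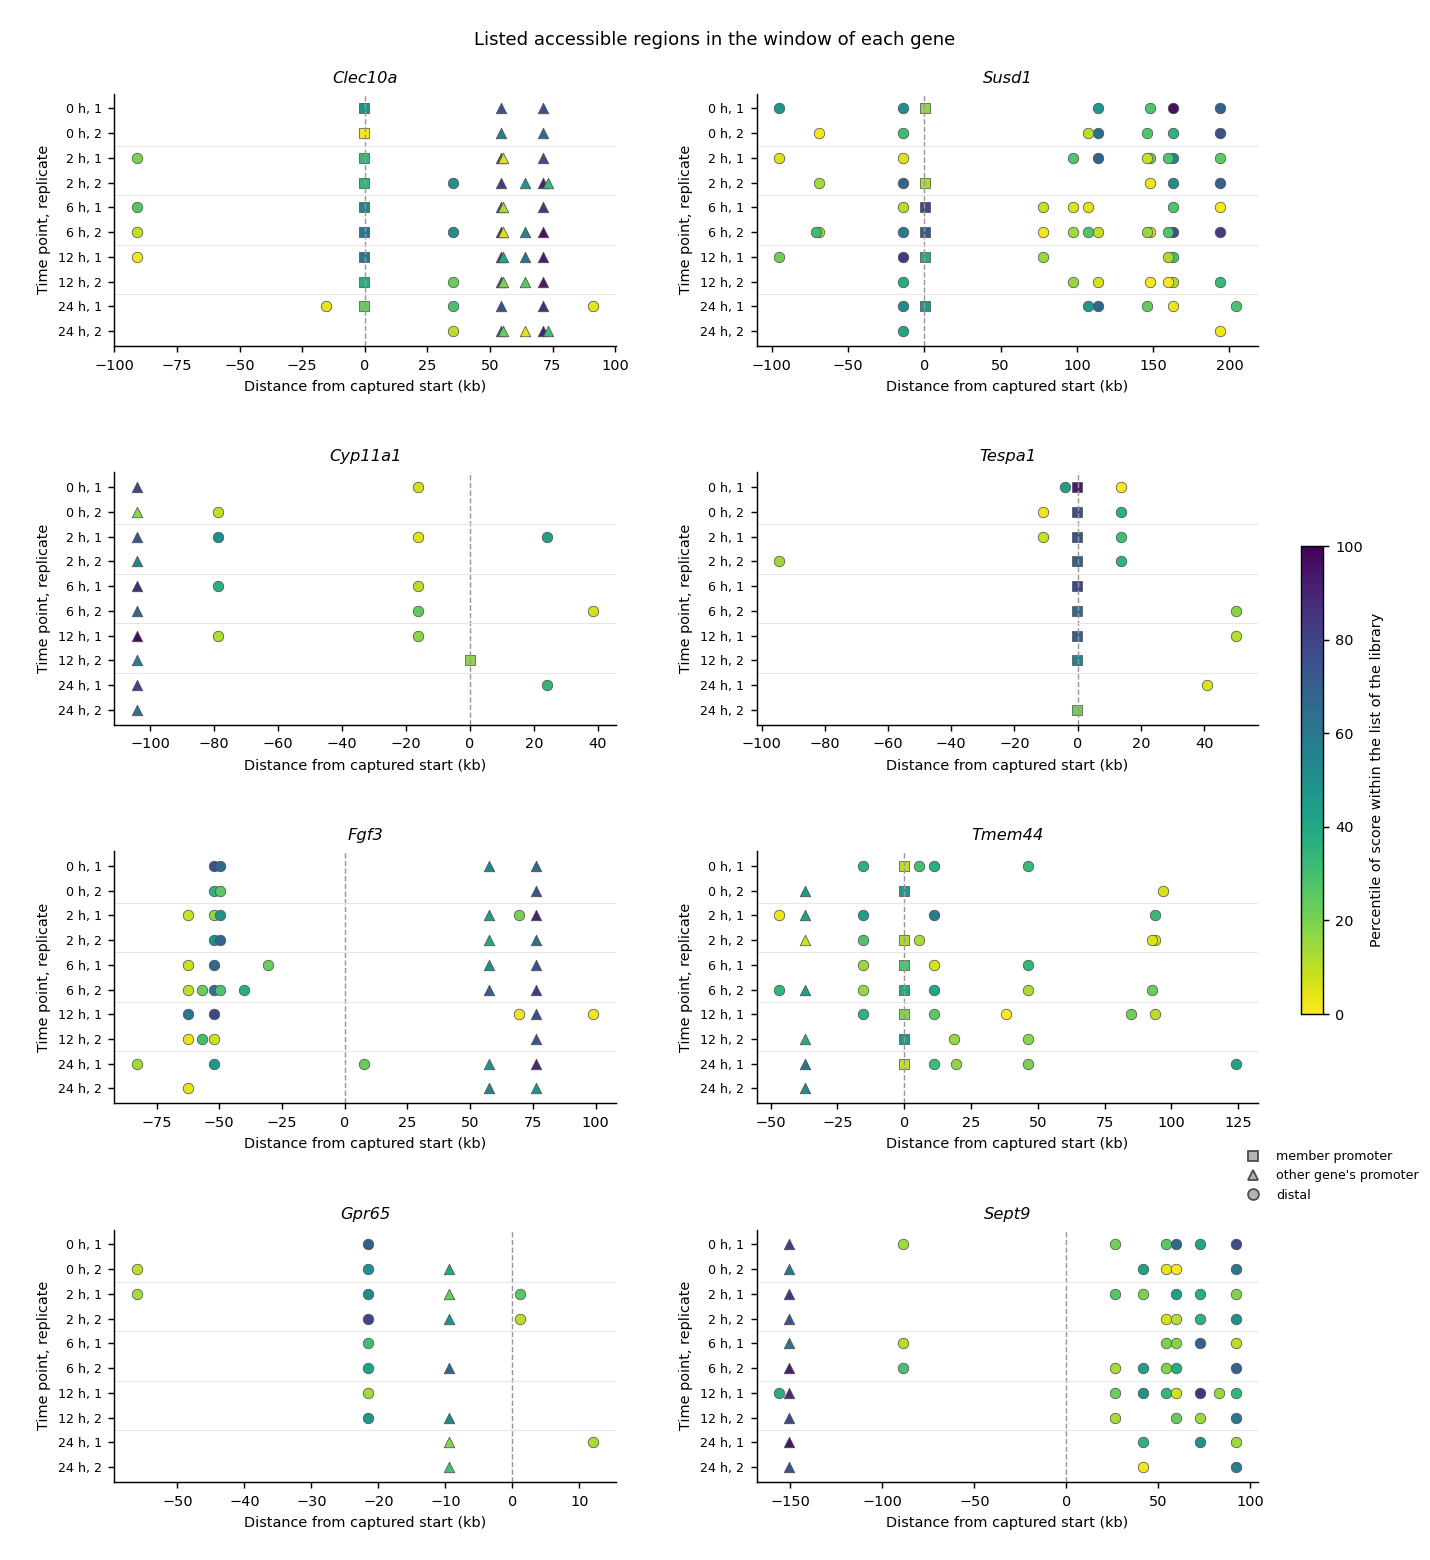
Regions listed in the window of each gene, by distance from the captured start in kb, positive in the direction of transcription (horizontal axis), and by time point and replicate (vertical axis). Symbols show member promoters (squares), promoters of other genes (triangles) and distal regions (circles), coloured by percentile within the list; few columns of symbols run through all 10 libraries, and 5 of the 7 that do are promoters of other genes.

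The rank of the 7 regions listed in every library was compared between time points with limma on normal scores. At 2, 6, 12 and 24 h no member region passed an adjusted p of 0.05, and neither did any of the 6234 regions listed in all 10 libraries (0%). At an unadjusted p under 0.05, 0 of the 7 member regions passed at any time, while 195 to 259 of all regions did. The widest member differences were +1.10 ± 0.63 (SE) for the Ubl7 promoter at 12 h and -0.94 ± 0.61 for the Sept9 region at 92.1 kb at 2 and 24 h. None of the 7 was a promoter of a member, since no member promoter was listed in all libraries.

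Motif content is given without a test. A GATA match lay in the central 300 bases of 27 of 80 member regions (33.8%, against 34.3% of all regions) and in 22 of the 64 distal ones (34.4%, against 46.9% of all distal regions). The TAL1-GATA element was found in 7 member regions (8.75%, against 6.49%), and in 9.38% of distal ones against 9.11% of all distal regions. RUNX matches (TGTGGT or TGCGGT) lay in 30.0% against 27.7%, ETS matches (AGGAAG or CGGAAG) in 57.5% against 48.3% (56.2% against 44.4% of distal regions), and AP-1 matches (TGANTCA) in 8.75% against 9.51%. Of the 5 lost regions, 3 held a GATA match, those of Gpr65, Tespa1 and Fgf3. Among all distal regions lost at 24 h, 82.0% held one.

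The number of summits within each window, scaled to 10000 listed, gave a second view that did not depend on merging. All 8 members had a mean of at least 2 summits a library and were tested among 12918 genes by limma on log2(summits per 10000 + 0.5). None passed an adjusted p of 0.05 at 2, 6 or 12 h, nor did any other gene (0%). At 24 h 0.0155% of genes did, namely Robo2 and Zfp704, named after their values were seen because they are the whole count. Without 0 h replicate 1 the fit called 20, 27, 27 and 35 genes at 2, 6, 12 and 24 h, and without 24 h replicate 1 it called 92 at 24 h, with 0 members among them. The fit compares small integers, and a miss does not show equal numbers.

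In the Tespa1 window the libraries of 0 and 2 h did not overlap those of later times. Each of the 4 libraries of 0 and 2 h held 3 summits in its window, and the 6 later libraries held 1 or 2. Per 10000 listed, the values were 1.97 and 2.56 before treatment and 0.642 and 0.935 after 24 h, and every library from 6 h on lay below every library of 0 and 2 h. How many of the other genes tested split in this way is not given here. The log2 difference from untreated cells was -1.03 ± 0.27 (SE) after 6 h, -0.89 ± 0.27 after 12 h and -1.10 ± 0.27 after 24 h. The unadjusted p at 24 h was 0.00127 and the adjusted p 0.309 (limma). With its mean of 2.0 summits a library the window only just passed the filter. It was not among the genes tested once all lists were cut to the length of the shortest.

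The Clec10a window held the opposite order, with 3 summits in each 0 h library and 5 to 7 in all 8 later ones. The scaled number was 1.97 and 2.56 before treatment and 3.85 and 5.61 after 24 h, so that all later libraries lay above both of 0 h. Here too the share of other genes that split in this way is not given. The log2 difference was +0.58 ± 0.26 (SE) after 2 h, +0.55 ± 0.26 after 6 h, +0.75 ± 0.26 after 12 h and +0.91 ± 0.26 after 24 h, with an adjusted p of 0.407 at 24 h (limma). With all lists cut to the length of the shortest, the 24 h difference was +0.44. In the second 24 h library 5 of 6 summits lay at promoters of Slc16a13, Bcl6b, 0610010K14Rik, Gm21988 and Rnasek, and none at Clec10a.

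For Sept9 and Susd1 the numbers stood lowest at 24 h. The Sept9 window held 7 and 5 in the untreated libraries and 4 and 3 in those of 24 h, and the difference of -0.63 ± 0.27 (SE) had an unadjusted p of 0.0376 and an adjusted p of 0.627 (limma). It was -0.18 with lists of equal length. The Susd1 window held 7 in each 0 h library and 7 and 2 at 24 h, with a difference of -0.74 ± 0.34. This last value rests on the second 24 h library, and without it the difference was -0.20. For Cyp11a1, Fgf3, Gpr65 and Tmem44 no time point reached an unadjusted p of 0.05, and their 24 h differences ran from -0.35 (Tmem44) to +0.04 (Fgf3).

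At an unadjusted p under 0.05, members higher than at 0 h were Clec10a at 2 h, where 2.5% of all genes were, none at 6 h (2.6%), Clec10a at 12 h (3.07%) and Clec10a at 24 h (4.26%). Members lower than at 0 h were none at 2 h (2.0% of genes), Tespa1 at 6 h (1.87%), Tespa1 at 12 h (2.2%), and Sept9, Susd1 and Tespa1 at 24 h (3.5%). The median difference over the 8 members was 0.03, 0.10, 0.09 and -0.33 at 2, 6, 12 and 24 h, beside -0.01, -0.03, 0.02 and 0.04 over all genes tested. At 24 h 6 of 8 members had a negative difference, as had 40.7% of all genes.

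**Figure D5:**
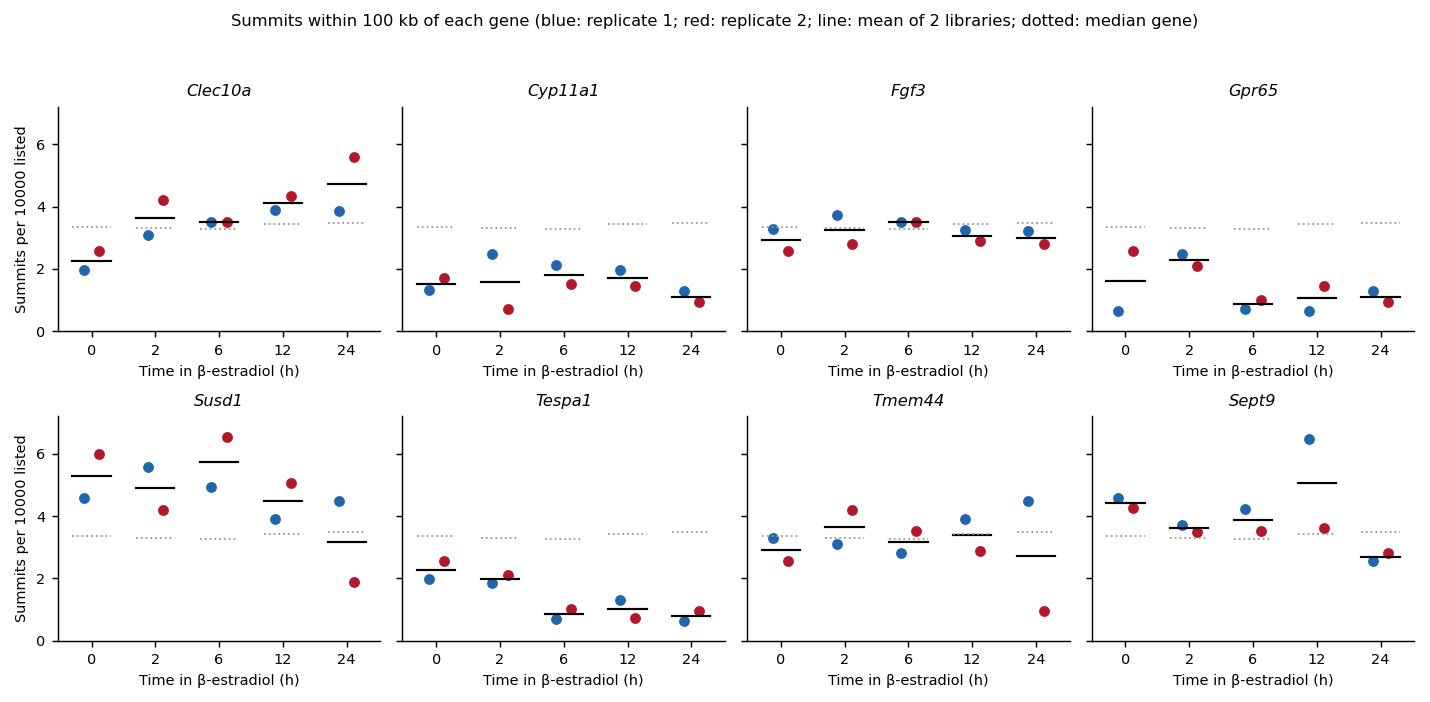
Summits within 100 kb of each gene per 10000 listed (vertical axis, from 0) against hours in β-estradiol (horizontal axis). Points are single libraries, solid lines means of 2 and dotted lines the median gene; Tespa1 stays at or below 1.3 from 6 h on, and Clec10a is at 3.1 or more in all later libraries against 1.97 and 2.56 at 0 h.

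For the 5 members with a promoter in 1 to 9 libraries, the 3 genes most like each in promoter presence over the 10 libraries, and then in percentile, were found among all protein-coding genes. For Clec10a these were Zbtb4, Sos2 and Mettl26, with the same presence in every library and a mean percentile difference of 8.06 to 11.2, but 220 genes shared that presence. For Tespa1 they were Hist1h2ac, Hist1h2bc and Bst2 among 126 such genes, and for Tmem44 Cd3eap, Mfsd10 and Igsf8 among 24. The single listing of Cyp11a1 was shared by 21 genes, led by Vamp2, Aes and Nacc1. Only Necab3 had the presence of Susd1, at a mean percentile difference of 31.0, followed by Neil1 and Dnhd1, which each differed in 1 library.

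Another 11 genes that the study captured as repressed were set beside these 8 without a test. Etv5 and Klf10 had a listed promoter in all 10 libraries, and Kit, the stem cell factor receptor, in 9. Il1rl1 had one in 7, with none at 24 h. Gata2, Srgn, Cpa3, Gzmb and Ms4a2 had none, as Fgf3, Gpr65 and Sept9 did, and Rgs1 and Rgs13 had one in 2 libraries and 1. In the windows of Rgs1 and Rgs13, which overlap each other, the mean number of summits per 10000 was 3.58 and 3.15 before treatment and 0.321 in each after 24 h, and in that of Gzmb it was 1.41 and 0. It was also lower after 24 h for Cpa3 (1.94 and 0.321), Gata2 (5.41 and 3.01), Il1rl1 (2.27 and 0.788) and Ms4a2 (1.51 and 0.788). Etv5 (1.51 and 1.26) and Kit (3.45 and 3.15) changed less, and Srgn (3.02 and 3.8) and Klf10 (2.59 and 3.01) were higher. The mean for Tespa1 was 2.27 before and 0.788 after 24 h, that for Gpr65 1.61 and 1.11, and that for Clec10a 2.27 and 4.73.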

How the data were processed

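ATAC-seq of 10 G1E-ER4 libraries was used, grouped by the time and replicate number in their titles. The authors aligned reads to mm10, kept uniquely placed reads and called peaks with MACS2. The processing notes name Bowtie 1.0.0 and Picard, and the methods name Bowtie2. Which was run is not settled here. The deposited lists give summits and a −log10 q-value per library, with no read counts, so depth is unknown and the number of summits is no measure of it. No Tn5 shift can be checked from them. Peaks were called per library.

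Summits on 21 chromosomes were used and mitochondrial ones (4 or 5 a list) left out. Windows of 250 bp either side were merged. Promoters lie within 1 kb of a GENCODE M21 basic start. A region was lost when both 0 h libraries and neither later library listed it, and gained in the reverse case. Ranks and summit numbers were compared with limma 3.58.1 in R 4.3.3, time as a factor over all 10 libraries, with Benjamini-Hochberg adjustment over all regions or genes, and the fits were tested on simulated data. Replicate numbers paired the libraries: over 6234 regions, differences between replicates correlated at 0.182 to 0.347 in all 10 pairs of time points. This comes from the data: the study describes 2 independent experiments but does not tie replicate numbers to them. The fits with the pairing as a block changed no call of a member. All 8 members were described, with every region at their promoters and every region lost, gained or past the threshold. Members and lists were chosen with earlier results of these data known.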

Additional observations from a re-analysis of the deposited data

How the results depend on the processing

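Cut to equal length, the lists gave 0, 1, 1 and 0 member regions gained at 2, 6, 12 and 24 h, and 2, 3 and 3 lost at 6, 12 and 24 h, now of 44 member regions instead of 80 (4.55%, 6.82% and 6.82% lost, against 2.17%, 2.51% and 3.8% of all). Of all regions, 2.18%, 2.2%, 2.12% and 2.66% were gained with equal lists at 2, 6, 12 and 24 h. Scores of at least 3 gave 1, 1 and 2 of 75 member regions gained at 2, 6 and 12 h. Over all regions these shares were 2.75%, 3.94% and 2.49%. The same cut gave 0 and 1 lost at 6 and 12 h, against 0.759% and 1.9% of all. Windows of 100 bp gave 1 of 88 gained at 2 h, against 2.56% of all. With them 0 and 1 were lost at 6 and 12 h, against 0.802% and 1.75%. Without 1 library, lost counts ranged over 1 to 3, 1 to 4, 3 to 8 and 7 to 13, and gained counts over 4 to 10, 6 to 15, 4 to 14 and 2 to 11, at 2, 6, 12 and 24 h. Over all regions the shares then lost were 3.07% to 7.35%, 1.11% to 5.86%, 3.73% to 8.69% and 5.12% to 11.4%, and those gained 4.13% to 11.2%, 5.8% to 19.5%, 3.73% to 11.5% and 2.58% to 12.6%. All of these single-library counts were at least the main ones, since absence or presence was then asked of fewer libraries. With absent libraries at the bottom of their list, 1 member region differed in rank at 24 h, as it did in that fit with the replicate number as a block, which called 0 of all regions at 2, 6 and 12 h and 141 at 24 h. Without 1 library, 0 or 1 member regions were called there at 24 h: 0 without either library of 0 or 24 h, and 1 otherwise. The block and the omissions in that fit were added after the data were seen. In the main fits with the replicate number as a block, 0 member regions and 0 members were called at each time, as without it. The same held under every other setting tried except the fit with absent libraries at the bottom. With equal lists Tespa1 was not among the genes tested for summit numbers. Member promoters were listed in 33 pairs of member and library, in 33 and 35 at 500 bp and 2 kb, 22 with equal lists and 43 with the starts of all GENCODE transcripts, a setting added after the data were seen, under which Sept9 was listed in all 10 libraries through its intronic regions. For 16 of 20 single calls at least 1 of the 4 other ways of forming regions and lists did not give the call. Precision is limited by 2 libraries a group and unknown depth, and absence from a list sets no upper limit on accessibility.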
